A study of Mus musculus with 6 samples.

Results

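The long-probe promoters were the promoter regions of the array whose probes were the longest on average. A promoter region was a run of at least 3 probes, with no more than 500 bp from the start of a probe to that of the next, in the mouse genome build mm9. A region belonged to the group when it lay on an autosome, when its probes had a mean length of 55 bases or more, and when it lay outside 4 intervals on chromosomes 2, 7, 9 and 10 that were left out as olfactory clusters. This rule uses the array design only and no measured value. It chose 1357 of 22574 regions (6.01%), and 1355 of them still had 3 probes after probes flagged as outliers were removed. Neither gene names nor probe sequences come with the positions, so the regions are named here by position. Their base composition was not measured. Olfactory receptor genes lie in clusters on many mouse chromosomes, and whether other such clusters are among the members was not checked.

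Genomic DNA came from adipose tissue of female C57BL/6J offspring at 32 weeks of age. The 3 LC mice were born to dams on a low chromium diet through gestation and lactation and ate the control diet after weaning. The 3 CC mice were born to dams on the control diet and stayed on it. Methylated DNA was pulled down with an antibody against methylated cytidine (MeDIP) and labeled with Cy5, unenriched input DNA from that mouse carried Cy3, and both were hybridized to 1 array per mouse with no dye swap. Each mouse came from a litter of its own. The offspring differed in the diet of the dam, and adipose tissue is a mix of adipocytes and other cells, so a difference in methylation and a difference in cell makeup cannot be told apart in these samples.

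DNA methylation in mammals sits mostly on cytosines that are followed by guanine (CpG sites). Promoters rich in CpG sites are mostly unmethylated, while CpG-poor promoters, many of them of genes that only a few tissues use, are often methylated. MeDIP pulls down a fragment according to how many methylated CpG sites it carries, so that CpG-poor DNA gives little signal even when each of its sites is methylated. On arrays of this kind probes are made longer where the sequence is rich in A and T, since such DNA melts more easily. The measure used below is log2(MeDIP/input), called the level, set so that the median probe of each array is at 0. A lower level stands for less pulled-down DNA per input DNA.

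Among the probes of the long-probe promoters, 54.7% were 60 bases long, the longest on the array, against 13.2% of all promoter probes. Only 4.75% of them were 45 bases long, the shortest on the array, against 49.9% of all. A member held a median of 7 probes (3 to 15) and spanned a median of 1588 bp (455 to 3563 bp). In 35 members every probe was 60 bases long.

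The members were spread unevenly over the genome. They made up 12.3% of the regions tested on chromosome 6 (152 of 1238), 10.3% on chromosome 7 (214 of 2087) and 9.22% on chromosome 16 (65 of 705). On chromosome 15 they made up only 1.40% (12 of 858), and on chromosome 11 they made up 2.16% (36 of 1663). Members often lay side by side. Of 525 windows of 1 Mb that held a member, 320 held a single member, while 28 windows held 10 or more and together had 419 members (30.9%).

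The 5 windows with the most members were chr2:111000001-112000000, chr19:13000001-14000000, chr6:132000001-133000000, chr13:27000001-28000000 and chr9:19000001-20000000. The window on chromosome 2 held 31 members among its 40 regions. Their median CC level was -1.10. The window on chromosome 19 held 22 members of 36 regions, with a median CC level of -0.66. On chromosome 6, 21 of 23 regions were members, with a median CC level of -0.45. On chromosome 13, 20 of 22 regions were members, with a median CC level of -0.37. On chromosome 9, 20 of 24 regions were members, with a median CC level of -0.28. In each of these dense windows the typical member lay below the median probe of the array, and single members reached from -3.28 to 0.71.

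The long-probe promoters had low levels on every array. Their median level was -0.54, -0.71 and -0.68 on the 3 LC arrays and -0.92, -0.80 and -0.82 on the 3 CC arrays. Every LC array lay above every CC array. The array medians averaged -0.65 ± 0.09 (SD, n = 3) for LC and -0.85 ± 0.06 (SD, n = 3) for CC. Over all regions of the array the LC median level was -0.14 ± 0.0027 (SD, n = 3) and the CC median level was -0.15 ± 0.0081 (SD, n = 3), and the groups overlapped. On the CC arrays 89.5% to 92.5% of the members lay below 0, against at most 60.7% of all regions on any array.

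**Figure D1:**
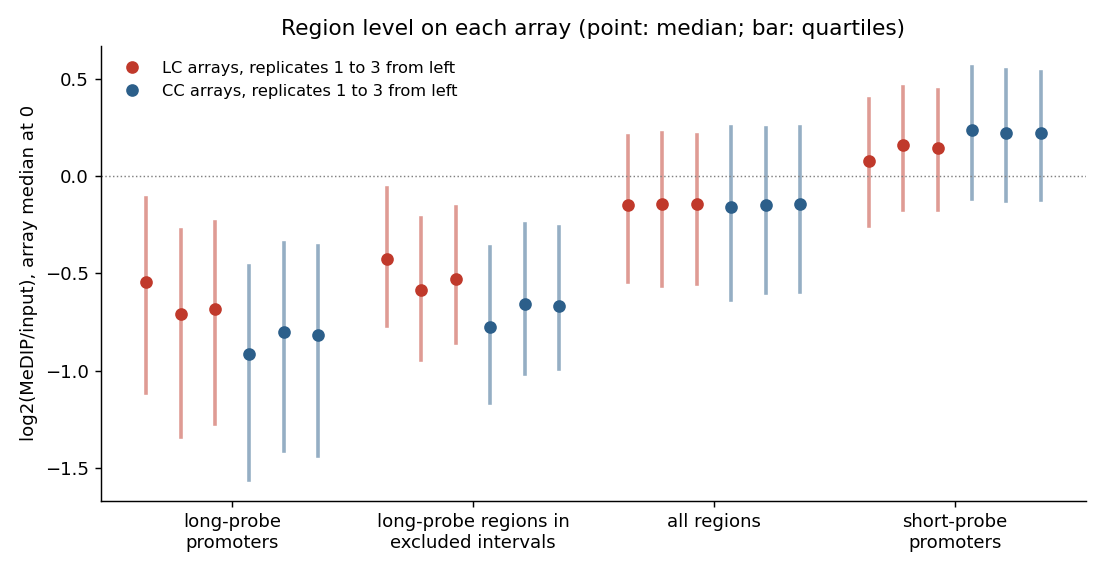
The plot gives the median (point) and the quartiles (bar) of log2(MeDIP/input) over regions on each of the 6 arrays, with the array's median probe at 0. The long-probe promoters had medians from -0.92 to -0.54 with all LC arrays above all CC arrays, and the short-probe promoters (mean probe length under 47 bases) had medians from 0.08 to 0.24 with all LC arrays below all CC arrays.

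The long-probe regions inside the 4 excluded intervals were close to the members. Their 359 regions averaged -0.51 ± 0.08 (SD, n = 3) on LC arrays and -0.70 ± 0.07 (SD, n = 3) on CC arrays. The short-probe promoters averaged 0.13 ± 0.04 (SD, n = 3) on LC arrays and 0.23 ± 0.0096 (SD, n = 3) on CC arrays. No test was made between these sets.

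The level also followed probe length inside the members. The 45-base probes of the members had a median CC level of 0.23, probes of 46 to 50 bases were at -0.37, probes of 51 to 54 bases at -0.72, probes of 55 to 59 bases at -0.96 and 60-base probes at -1.14. In 951 members that held both a 60-base probe and a probe of at most 50 bases, the 60-base probes lay lower than the shorter probes of the same member by a median of -0.95 to -1.07 on the CC arrays and of -0.82 to -0.92 on the LC arrays. Between 70.1% and 76.0% of these members had the lower value at the 60-base probes, depending on the array. Probes of different length thus gave different levels within the same promoter.

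Both dyes were dim at these promoters. With each channel's median probe at 0 on the log2 scale, the median input signal of the members was -1.50, -1.43 and -1.43 on the LC arrays and -1.23, -1.38 and -1.29 on the CC arrays. All LC arrays lay below all CC arrays. The median MeDIP signal was -2.15, -2.23 and -2.20 on the LC arrays and -2.21, -2.22 and -2.20 on the CC arrays, and here the groups overlapped. The group means differed by -0.16 for input and by 0.012 for MeDIP.

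In the input channel 64.6%, 77.8% and 76.8% of the member probes passed the background limit (well above background) on the 3 LC arrays, against 87.4%, 85.5% and 89.1% on the CC arrays. The MeDIP share was 42.8% to 43.5% in LC and 41.3% to 42.7% in CC. Over all regions the LC arrays had an input share of 92.7% ± 2.99 (SD, n = 3) and the CC arrays one of 97.2% ± 0.397 (SD, n = 3). At 5024 member probes (55.3%, against 22.7% of all probes) the MeDIP signal was not well above background on any array, so the level there is only an upper limit where the input was bright. At 876 member probes (9.64%) the input was not well above background on any array. No member probe was saturated.

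**Figure D2:**
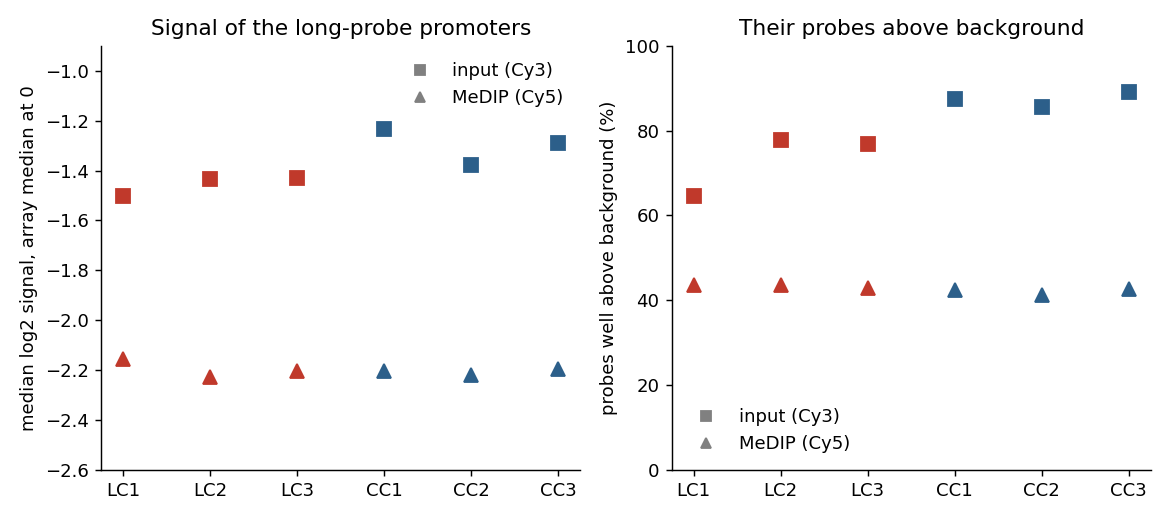
The left panel gives the median log2 signal of the long-probe promoters in each channel with the array's median probe at 0, and the right panel gives the percentage of their probes that were well above background. Input (squares) was lower on the 3 LC arrays (red) than on the 3 CC arrays (blue) in both panels, while MeDIP (triangles) lay between -2.23 and -2.15 and between 41.3% and 43.5% on all arrays.

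The comparison of LC with CC asked whether a low chromium diet of the dam went with another promoter methylation in adult offspring. At the long-probe promoters the level was higher in LC. The difference LC minus CC had a median of 0.22 (quartiles 0.14 and 0.28, from -0.29 to 0.52) on the log2 scale, against 0.015 over all regions, and it was above 0 in 1292 of 1355 members (95.4%, against 53.8% of all regions). In limma, with Benjamini-Hochberg adjustment over all 22569 regions and a threshold of 0.05, 545 members (40.2%) were higher in LC, against 10.2% of all regions, and 3 members (0.22%) were lower, against 8.86% of all regions. The 545 had a median difference of 0.28, from 0.15 to 0.52, with a lowest adjusted p of 0.018 in limma. The standard error of a member's difference had a median of 0.074.

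All LC arrays lay above all CC arrays at 772 members (57.0%, against 24.1% of all regions), and all LC arrays lay below all CC arrays at 7 members (0.517%, against 20.5% of all regions). For the long-probe regions inside the excluded intervals these shares were 48.2% and 0.836%. The difference of the members kept its direction on each scan day. It had a median over the members of 0.40 between LC1 and CC1, 0.086 between LC2 and CC2 and 0.16 between LC3 and CC3, and it was above 0 in 96.5%, 77.6% and 86.3% of the members on these days. Over all regions the median difference was 0.018, 0.011 and 0.0071 on the same days.

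The calls rested on few arrays and on the scale. Without CC1 or without CC3 no region of the array passed limma's threshold, although 626 and 821 members were still higher at an unadjusted p under 0.05. Calls at an unadjusted p were counted for the members only. Without CC2 231 members were higher (17.0%, against 2.75% of all regions), and without LC1 281 were (20.7%, against 5.18%). With the scan day as a block (replicate block) no member passed, the lowest adjusted p over all regions was 0.051 in limma, and 839 members were higher and 6 lower at an unadjusted p under 0.05. When the trend of the ratio on probe length was removed within each array, 3 members were higher (0.221%, against 1.41% of all regions) and 37 lower (2.73%, against 2.99%), and the median difference was -0.0079. With normexp background correction 366 members were higher (27.0%, against 20.7% of all regions) and 40 lower (2.95%, against 6.76%), with a median difference of 0.056 against 0.039 over all regions. With the authors' processed values 169 members were higher (12.5%, against 7.93% of all regions) and 101 lower (7.45%, against 9.28%), with a median difference of 0.015 against 0.0063. Under these settings the median of the members lay closer to that of all regions.

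The difference was larger in the input channel. With each channel's median probe at 0, the members had a median LC minus CC difference of -0.17 in input and 0.0052 in MeDIP, and in 1264 members (93.3%, against 84.0% of all regions) the input difference was the larger of the pair in size. Input tested alone, after quantile normalization, was lower in LC at 254 members (18.7%, against 7.13% of all regions) and higher at 10 members (0.738%, against 7% of all regions) in limma. MeDIP tested alone gave no member and no other region of the array past the threshold in limma. At an unadjusted p under 0.05 in limma, 199 members were higher and 30 lower. That count was made for the members only, so no share of all regions stands beside it. Of the 545 members called higher in the ratio, 207 were also called lower in input, and in 541 the input difference was larger than the MeDIP difference. Across the 1355 members the difference in the ratio and that in input ranked against each other (Spearman's rho = -0.92), which is a description, since input is part of the ratio.

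The raw input signal of the member probes above their local background had a median of 48.5 ± 15.8 (SD, n = 3) intensity units on LC arrays and of 120.7 ± 16.4 (SD, n = 3) on CC arrays. The MeDIP signal had a median of 22.2 ± 2.93 (SD, n = 3) on LC arrays and of 28.2 ± 7.69 (SD, n = 3) on CC arrays. Raw input over all regions had a median of 134.2 ± 32.7 (SD, n = 3) on LC arrays. On CC arrays this median was 296.8 ± 49.8 (SD, n = 3). At the short-probe promoters raw input was 203.2 ± 46.1 (SD, n = 3) on LC arrays. On CC arrays it was 428.8 ± 74.9 (SD, n = 3) there. Lower raw input on the LC arrays was thus not particular to the long-probe promoters. The part of input brightness in the difference was not tested. Each LC array took position 1 on its slide and each CC array took position 3, and array position and diet group cannot be told apart. On CC3 the scanner read the MeDIP dye at 306 V, against 279 V on the other 5 arrays.

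The difference changed steadily with mean probe length over the whole array. In bins of 1 base its median was -0.11 at 45 bases, -0.0015 at 48 bases, 0.11 at 51 bases, 0.18 at 54 bases and 0.20 at 55 bases. It reached 0.25 in the 45 regions whose probes were all 60 bases long. The input difference ran the other way, from 0.13 at 45 bases to -0.16 at 55 bases and -0.27 at 60 bases. The MeDIP difference stayed between -0.023 and 0.009 in all bins. The share of regions called higher rose from 0.532% at 45 bases to 40.6% at 57 bases and was 28.9% at 60 bases, and the share called lower fell from 26.8% at 45 bases to 0.168% at 55 bases.

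**Figure D3:**
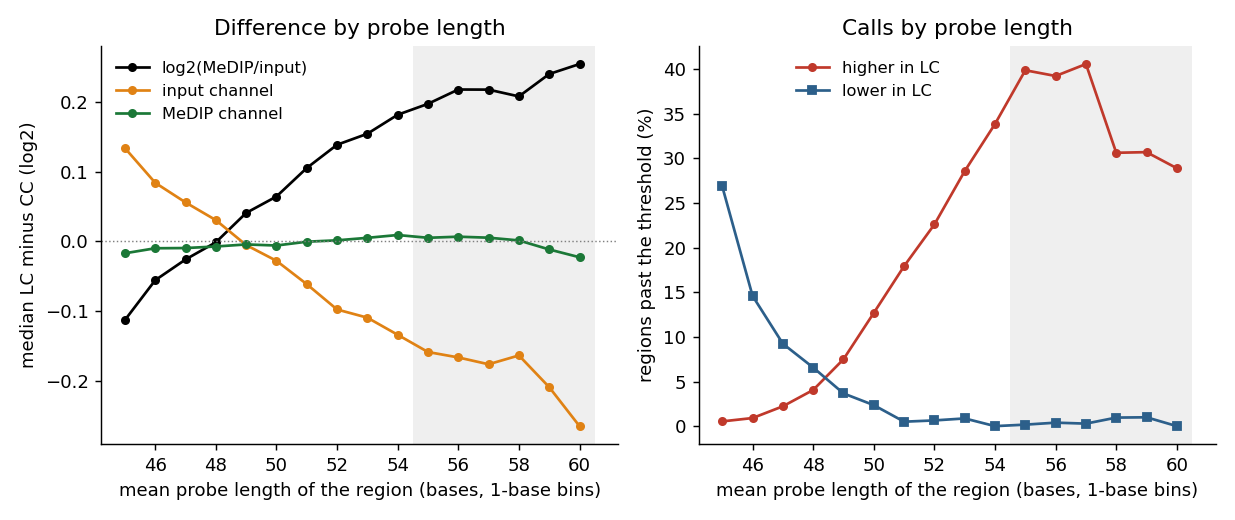
Regions of the array are grouped by the mean length of their probes in bins of 1 base, and the shaded bins hold the long-probe promoters together with the long-probe regions that the rule leaves out. The left panel gives the median LC minus CC difference of the ratio and of each channel (log2), and the right panel gives the percentage of regions past limma's threshold; the ratio rose from -0.11 to 0.25 and input fell from 0.13 to -0.27, while MeDIP stayed near 0.

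No step stood at the limit of 55 bases. The 271 members with a mean length of 55 bases and up to 0.5 bases more had a median CC level of -0.75 and a median difference of 0.20. The 242 autosomal regions within 0.5 bases below the limit had a median CC level of -0.72 and a median difference of 0.18. Of the former 42.8% were called higher and of the latter 36.0%.

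Inside the members the median difference varied little with mean probe length. Members with a mean length from 55 to under 56 bases had a median difference of 0.20, and those of 59 bases or more had a median difference of 0.25. The share called higher was 42.2% (196 of 465) in the former and 31.1% (33 of 106) in the latter. Single probes showed a wider range. The median difference was 0.069 for the 45-base probes of the members, 0.16 for probes of 46 to 50 bases, 0.20 for 51 to 54 bases, 0.22 for 55 to 59 bases and 0.27 for 60-base probes. Probes of 60 bases in other regions were at 0.27 as well, and 45-base probes in other regions were at -0.096. In the 951 members with both kinds of probe the median difference was 0.13 at probes of at most 50 bases and 0.26 at 60-base probes, and it was larger at the 60-base probes in 708 members (74.4%).

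The difference was found on every chromosome that held members. The median per chromosome ran from 0.19 on chromosome 12 (22 members) to 0.25 on chromosome 7 (214 members). The share called higher ran from 26.2% on chromosome 9 (16 of 61) to 51.9% on chromosome 4 (40 of 77), and was 49.1% on chromosome 7 (105 of 214). In the 5 densest windows 9 of 31 members were called higher on chromosome 2, 11 of 22 on chromosome 19, 6 of 21 on chromosome 6, 7 of 20 on chromosome 13 and 2 of 20 on chromosome 9.

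Only 12 members had every probe well above background in both channels on all 6 arrays (0.886% of the members, against 16.2% of all regions), and 11 of these were chosen by level or by difference. In 10 of the 12 the difference was above 0, and 4 were called higher in limma. They are the members whose levels do not rest on dim spots. Their CC levels lay either between -0.24 and 0.86 or between -3.002 and -2.46. The filter asks for MeDIP above background too, so a low level passes only where the input is very bright. The levels of these 12 thus do not describe the long-probe promoters as a whole.

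The region at chr3:10352057-10352524 had the highest CC level of these members. Its level was 0.79, 0.85 and 0.84 on the LC arrays and 0.76, 0.87 and 0.94 on the CC arrays. The groups overlapped, and the difference was -0.029 ± 0.056 (SE; adjusted p = 0.73 in limma). The region at chr9:36349092-36349651 followed, with 0.68, 0.60 and 0.78 in LC and 0.69, 0.70 and 0.65 in CC. Here too the groups overlapped. These promoters held more MeDIP DNA per input than the median probe of the array in every mouse.

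The region at chr3:129582825-129583398 was at 0.37, 0.33 and 0.29 in LC and at 0.12, 0.11 and 0.11 in CC. All LC arrays lay above all CC arrays by more than the spread within either group, and the difference was 0.22 ± 0.04 (SE; adjusted p = 0.020 in limma). It was 0.074 (adjusted p = 0.32 in limma) once the trend on probe length was removed.

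The largest difference among these members was at chr13:27735039-27735505. Its level was 0.62, 0.09 and 0.09 in LC and -0.22, -0.25 and -0.17 in CC. The groups did not overlap, but LC1 stood well above the other LC arrays. The difference was 0.48 ± 0.12 (SE; adjusted p = 0.029 in limma), with -0.35 in input and 0.09 in MeDIP. Without LC1 it was 0.30 (adjusted p = 0.020 in limma), and without the trend on probe length it was 0.22 (adjusted p = 0.16 in limma).

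The region at chr7:93811742-93812639 was at 0.13, 0.08 and 0.07 in LC and at -0.10, -0.16 and -0.05 in CC, a difference of 0.20 ± 0.05 (SE; adjusted p = 0.029 in limma). The region at chr9:14545977-14546445 was at 0.30, 0.03 and 0.12 in LC and at -0.05, -0.08 and -0.01 in CC, and it did not pass (difference 0.20 ± 0.07, SE; adjusted p = 0.061 in limma). In both regions every LC array lay above every CC array. Their levels were close to that of the median probe of the array in all mice.

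The other 5 regions lay on chromosome 7 and were far below 0. The region at chr7:21316299-21316946 was at -2.23, -2.35 and -2.33 in LC and at -2.53, -2.41 and -2.45 in CC. The regions at chr7:21515982-21516629 and chr7:23505068-23505715 had group means of -2.28 and -2.32 in LC and of -2.49 and -2.48 in CC. Their probes had the same lengths and the same spacing as those of the region at chr7:21316299-21316946. Only the region at chr7:21515982-21516629 was called higher (difference 0.21 ± 0.06, SE; adjusted p = 0.046 in limma), although the differences of the other two were 0.16 and 0.16. With normexp all 5 regions on chromosome 7 passed, with differences of 0.38 to 0.46, and with quantile normalization none passed, with differences of 0.0081 to 0.059. The regions at chr7:15974178-15974647 and chr7:16132487-16132956 were lower still, at -3.002 and -2.99 in CC and at -2.79 and -2.79 in LC, and they also shared a probe layout. All 5 were bright in input, by 2.62 to 3.93 on the log2 scale above the median probe, so their low levels were measured at bright spots.

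**Figure D4:**
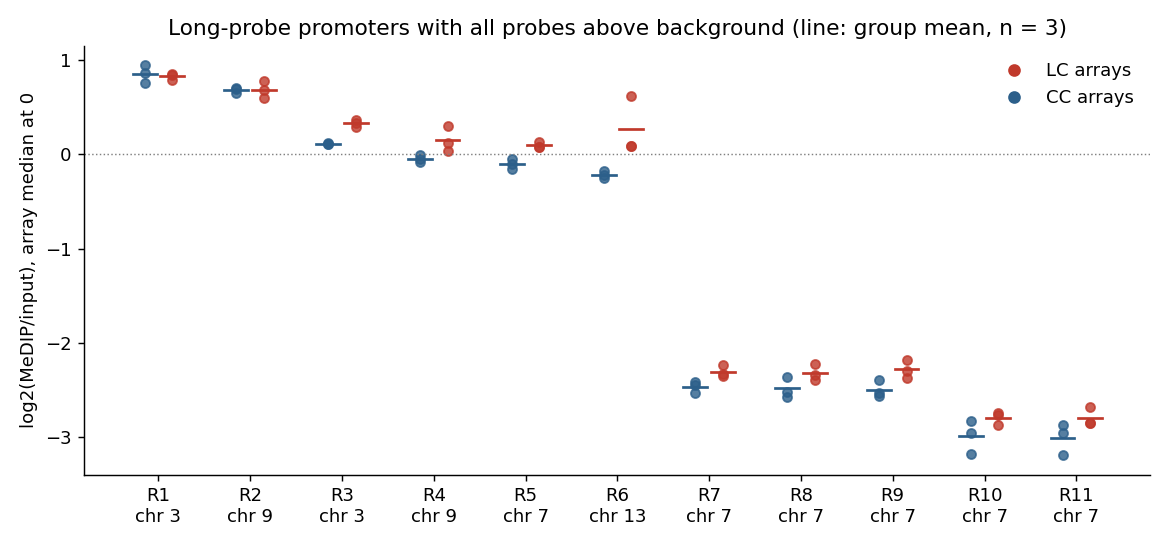
Each point is log2(MeDIP/input) of a region on 1 array, and each line is the mean of 3 arrays, for the 11 long-probe promoters named by rule, in order of their CC level from R1 (chromosome 3, 0.86) to R11 (chromosome 7, -3.002). R1 to R6 lay between -0.25 and 0.94 on all arrays, R7 to R11 on chromosome 7 lay between -3.19 and -2.18, and LC means were above CC means in all but R1.

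A class of the members with bright input had low levels. It was chosen after the values were seen, and since the level is MeDIP over input, bright input lowers the level by construction where MeDIP is alike. In 175 members (12.9%, against 56.8% of all regions) the CC input was above that of the array's median probe. Their median CC level was -3.12, against -0.74 in the other 1180 members. Of these 175, 101 lay on chromosome 7 and 22 on chromosome 4. The 101 members with a CC level below -3 made up 35.1% of the 288 such regions on the array, 98 of them were bright in input, and 73 lay on chromosome 7. Their MeDIP signal had a median of -1.99, close to the -2.27 of the members whose input was not above the median probe.

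The members were also ordered by CC input and cut into 5 groups of 271. The median CC level was -0.46 in the dimmest group and -2.38 in the brightest, and the median difference was 0.18 and 0.25. Of the dimmest group 63 were called higher, and of the brightest 160. In the 231 members with all probes well above the input background on all arrays, the median difference was 0.25 and 146 (63.2%) were called higher, and none was called lower. The CC input that orders the members is itself a part of the difference, so these values do not separate brightness from it.

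The lowest level was at chr4:147016118-147016582, with -6.69, -6.50 and -6.28 in LC and -6.58, -6.14 and -6.12 in CC. The groups overlapped. The MeDIP signal was well above background at only 1 of its 3 probes, so these values are upper limits. Its difference was -0.21 ± 0.13 (SE; adjusted p = 0.25 in limma) and turned to 0.42 with normexp background correction. This region was chosen after its values were seen, as were the regions in the next 4 paragraphs.

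Many of the bright members on chromosome 7 lay between positions 20592224 and 24840207. Of 143 regions there, 73 were members. Their median level was -3.42 in CC and -3.11 in LC, their median input was 1.67 above the median probe on the log2 scale, and 51 had a CC level below -3. The difference was above 0 in 72 of the 73, with a median of 0.26, and 44 were called higher.

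Within this stretch the probe layout was often repeated. A layout was called repeated when another region of the array had probes of the same lengths at the same spacing, read in either direction. This held for 78 members (5.76%) and for 1.04% of all regions. There were 29 layouts whose copies were members on the same chromosome, with 65 members in all, and 21 of these layouts, with 46 members, were on chromosome 7. In 8 layouts on chromosome 7 the copies lay 2188769 to 2195336 bp apart. Copies of a promoter may share their target sequence, and the sequences were not compared.

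The copies gave nearly the same levels on spots of their own. Over the 29 layouts the largest gap between the CC levels of the copies had a median of 0.03 and reached 0.32. The copies at chr7:20753307-20754564 and chr7:22948635-22949892 were at -3.11 and -3.10 in CC, with differences of 0.30 and 0.29. The copies at chr7:20960340-20961592 and chr7:23155639-23156891 were at -3.40 and -3.40 in CC, with differences of 0.35 and 0.37. On chromosome 3, 4 copies, of which the region at chr3:113061118-113062284 is the one nearest the start of the chromosome, were at -2.01 to -1.96 in CC, with differences from 0.27 to 0.37, all called higher (adjusted p from 0.019 to 0.022 in limma). In 5 layouts with copies on several chromosomes, which had 3 or 4 probes each, the copies were 0.42 to 2.12 apart in CC. The counts given for the members take copies of a layout as separate members, although they may not be independent readings. Of the 78 members with a repeated layout, 55 (70.5%) were called higher. Without the 78 members, 490 of 1277 members (38.4%) were called higher and 3 lower, and the median difference was 0.21.

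**Figure D5:**
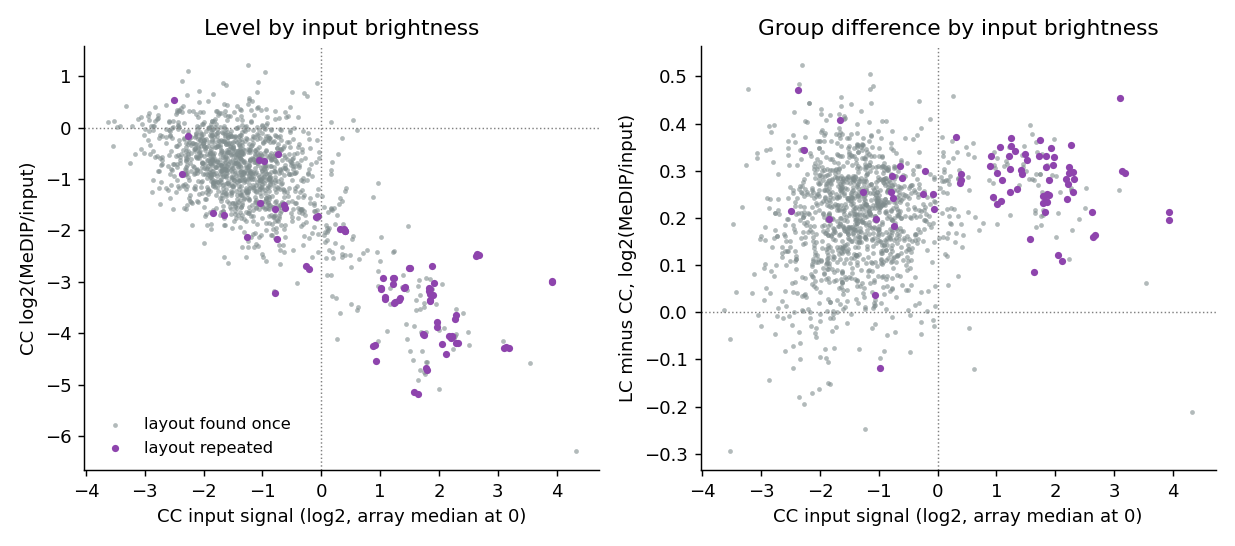
Each point is a long-probe promoter; the horizontal axis is its CC input signal (log2, the array's median probe at 0), and the vertical axes are its CC level (left) and its LC minus CC difference (right). Members with a repeated probe layout (purple) had a median CC level of -3.13 and a median input of 1.42, against -0.81 and -1.36 for the other members, and their median difference was 0.28 against 0.21.

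The 3 members called lower in LC each held dim probes, to a different extent. The region at chr5:87997532-87999186 was at -0.23, -0.22 and -0.08 in LC and at 0.09, 0.17 and 0.09 in CC, a difference of -0.29 ± 0.06 (SE; adjusted p = 0.019 in limma), but 1 probe of its 8 passed the background limit in each channel. The region at chr2:111593188-111594744, inside the densest window, was at -1.66, -1.74 and -1.60 in LC and at -1.47, -1.33 and -1.45 in CC, a difference of -0.25 ± 0.06 (SE; adjusted p = 0.025 in limma). In it 7 of 8 probes were above the input background and 2 above the MeDIP background. The region at chr3:14361856-14363510 was at 0.86, 0.87 and 0.96 in LC and at 1.04, 1.09 and 1.15 in CC, a difference of -0.19 ± 0.05 (SE; adjusted p = 0.033 in limma). Here 5 of 8 probes were above the background limit in each channel. All 3 stayed below 0 with normexp, with the authors' values and without the trend on probe length, from -0.56 to -0.16.

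The largest call was at chr9:92203010-92204608, at -0.57, -0.81 and -0.62 in LC and at -1.34, -1.05 and -1.18 in CC. The groups did not overlap, and the difference was 0.52 ± 0.08 (SE; adjusted p = 0.019 in limma), with -0.51 in input and -0.03 in MeDIP. A single probe of 6 passed the background limit in each channel, and the difference was 0.05 with normexp and 0.25 without the trend on probe length. The highest CC level of all members was at chr11:73241530-73242279, at 1.33, 1.23 and 1.16 in LC and at 1.18, 1.21 and 1.23 in CC, where the groups overlapped.

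Peaks were also searched along the promoters with a Kolmogorov-Smirnov (KS) test, which asks whether the probes in a window of 750 bp rank high or low among the differences of all probes. Adjacent probes, at least 2 of them, that scored 2 or more (-log10 p) made a peak. This score takes probes as the unit and ignores the spread between mice. A hypermethylated peak in LC was found in 142 members (10.5%, against 2.2% of all regions), and a hypomethylated peak in 0 members, against 4.1% of all regions. Of the windows centered on the 9091 member probes, only the 5816 with at least 3 probes could score. All 5816 held exactly 3 probes. Without the trend on probe length 5 members (0.369%, against 1.02% of all regions) had a hypermethylated peak and 18 (1.33%, against 2.01%) a hypomethylated peak. With the authors' processed values 107 members (7.90%, against 6.69% of all regions) had a hypermethylated peak and 85 (6.27%, against 8.79%) a hypomethylated peak.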

How the data were processed

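The authors deposited Agilent Feature Extraction 11.0.1.1 output for 6 arrays together with a table of values they had processed. The deposited processed intensity of each dye had been background-subtracted, spatially detrended and scaled by a linear factor per dye; raw median spot and background intensity and flags of 0 or 1 were also used. The log10 ratio deposited by the authors served to check direction only (correlation of at least 0.999 with the ratio computed here). The authors' processed log2 values correlated with it at 0.866 to 0.905; their normalization is not given in the sources used here.

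The log2 ratio of Cy5 over Cy3 was centered on each array's median over 174638 promoter probes; 5827 control features and 362 outlier-flagged probes were removed. No loess or quantile normalization was applied. Region means were tested with limma 3.58.1 in R 4.3.3 (LC minus CC, Benjamini-Hochberg adjustment, threshold 0.05); channels were tested alone after quantile normalization. KS peaks used scipy 1.17.1. The scripts were tested on simulated data. That 3 arrays a group were available limits the precision.

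Replicates of a number shared a scan day (numbers 1 and 2 also a slide). The deviations of same-numbered arrays correlated at -0.16, 0.11 and -0.0003 across all regions and at 0.089, 0.11 and 0.12 across the members. All values were low, and those across all regions were not all above 0, so the numbers were not taken to pair the mice. Across the members the values were all above 0.

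Named regions needed all probes well above background in both channels on all arrays; of these the 5 highest and 5 lowest by CC level, up to 5 with the largest called difference in each direction without overlap of the groups, and the 5 windows of 1 Mb with the most members were named. The members and lists were chosen with earlier results of these data known. Alternatives covered background correction, normalization, spread, the authors' values, dim probes, centering, probe length, blocks, the summary over probes, variance, the methods' t-test, KS windows and score, each array left out, and repeated layouts, the last added after the data were seen. The X and Y chromosomes (106 and 2 long-probe regions) were outside the rule. Genes and sequences were not analysed here, since the tables at hand are on another build.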

Additional observations from a re-analysis of the deposited data

How the results depend on the processing

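The median difference over the long-probe promoters was above 0 under every alternative but the removed probe-length trend, where it was -0.0079. It was 0.056 with normexp, 0.083 with loess, 0.12 with equal array spread and 0.015 with the authors' values. Leaving out each array gave 0.16 to 0.25. The median CC level of -0.85 was -0.20 with normexp, -0.014 with loess and -0.93 with only probes above the input background, and stayed below 0 in the settings tried for it (these, quantile normalization, the authors' values, no centering, each CC array left out and repeated layouts left out).

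Against 545 members called higher, 111 were called with loess, 131 with quantile normalization, 67 with equal array spread, 169 with the authors' values, 836 without centering, 3 without the probe-length trend, 162 with the median over probes, 5 with the replicate block and no probe-length trend, and 0 with the replicate block, with the slide as a block (which takes the difference from 2 of the 3 days only, 692 members higher and 7 lower at an unadjusted p under 0.05) and with the methods' t-test after Benjamini-Hochberg adjustment (444 higher and 3 lower at an unadjusted p under 0.05). Leaving out each array gave 0 (without CC1 or CC3, with 0 over all regions) to 707 (without LC2, 52.2%, against 12.7% of all regions). Against 3 members called lower, 40 were called with normexp, 11 with loess, 12 with equal spread, 101 with the authors' values, 9 of 1115 with only probes above the input background, 37 without the probe-length trend, 66 with the replicate block and no probe-length trend, and 0 with the median over probes, with the replicate block, with the slide block and with the adjusted t-test. Leaving out each array gave 0 to 3 (at most 0.221%, against 0% to 10.5% of all regions). The counts at an unadjusted p were made for the members only, so no share of all regions stands beside them. With a variance trend and robust variance in limma 473 members were called higher (34.9%, against 9.30% of all regions). Of the 545 members, 131 were also called higher with quantile normalization, 158 with the authors' values, 251 with normexp and 3 without the probe-length trend. As shares of the members and of all regions, the calls higher were 8.19% and 3.12% with loess, 9.67% and 2.30% with quantile normalization, 4.94% and 1.38% with equal spread and 12.5% and 7.93% with the authors' values, and the calls lower were 7.45% and 9.28% with the authors' values, 2.73% and 2.99% without the probe-length trend and 4.87% and 4.83% with the replicate block and no probe-length trend. The cause of these shifts was not tested.

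In the input channel alone, centering on the channel median gave 498 members lower and 3 higher, against 254 and 10. These were 36.8% and 0.221% of the members, against 7.32% and 13.1% of all regions. The replicate block gave 250 lower (18.5%, against 7.05% of all regions) and 18 higher (1.33%, against 7.58%). Leaving out each array gave 91 (without CC3, 6.72%, against 2.32% of all regions) to 278 lower (without CC2, 20.5%, against 5.59%). It gave 4 (without CC3, 0.295%, against 1.07%) to 23 higher (without LC2, 1.70%, against 5.98%). In the MeDIP channel alone, centering on the median gave 3 members lower, of 3 such regions on the array. The replicate block gave 1 of 3, against 0 of 0 in the main setting. Leaving out each array gave 0 to 3 members lower and 0 to 1 higher in limma, against 0 to 12 and 0 to 2 over all regions.

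Hypermethylated KS peaks in 142 members became 64 with windows of 500 bp (4.72%, against 1.03% of all regions) and 283 with windows of 1000 bp (20.9%, against 4.19%). They became 15 with a score of 3 (1.11%, against 0.164%) and 5 without the probe-length trend (0.369%, against 1.02%). With each array left out they were in 86 members (without CC1, 6.35%, against 1.68%) to 211 members (without CC2, 15.6%, against 2.87%). Hypomethylated peaks in 0 members became 43 with normexp (3.17%, against 3.38% of all regions) and 85 with the authors' values (6.27%, against 8.79%). They became 18 without the probe-length trend (1.33%, against 2.01%) and 0 to 2 with each array left out (at most 0.148%, against 3.53% to 4.60%).

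Of 121 values of the 11 named regions under alternatives, 14 had the opposite sign. At chr3:10352057-10352524 the difference was 0.030 with quantile normalization, 0.022 with the authors' values and -0.077 to 0.014 with each array left out. At chr9:36349092-36349651 it was -0.0085 with normexp, -0.21 without the probe-length trend and -0.041 to 0.047 with each array left out. Without the probe-length trend it was -0.047 at chr9:14545977-14546445, -0.029 at chr7:93811742-93812639, -0.063 at chr7:21316299-21316946, -0.059 at chr7:23505068-23505715, -0.0095 at chr7:21515982-21516629, -0.018 at chr7:16132487-16132956 and -0.00026 at chr7:15974178-15974647. With normexp the 5 regions on chromosome 7 were at 0.38 to 0.46 and all passed, and chr7:21316299-21316946 also passed with the authors' values (0.19). The 4 called regions all lost their call with the replicate block, without the probe-length trend and without CC1, CC2 or CC3. The region at chr7:21515982-21516629 also lost it without LC1 or LC2, with quantile normalization and with the authors' values. The region at chr13:27735039-27735505 also lost it with quantile normalization.

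Signal over background limits these promoters: a level whose MeDIP signal is not well above background is an upper limit where the input was bright and no limit where the input was dim too. The background correction also moved differences at bright spots, as in the 5 named regions on chromosome 7. The 3 arrays of each group allow no finer statement, and arrays of a replicate number shared a scan day and, for numbers 1 and 2, a slide.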
